A study of Mus musculus with 7 samples.

Results

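The 10 genes described here encode TNF (tumor necrosis factor) superfamily ligands, their receptors and a receptor adaptor. The ligands are Tnf, Lta, Ltb, Tnfsf12 and Tnfsf13b, the receptors are Tnfrsf1a, Tnfrsf1b, Tnfrsf12a and Ltbr, and the adaptor is Traf1. They were taken by name from the 57010 gene identifiers of the counts table, and every one of the 10 was found. Their mRNA was measured by RNA-Seq in mature white adipocytes that collagenase had freed from the perigonadal fat of male mice. There were 3 FFA2 fl/fl libraries, from floxed control mice, and 4 Adipoq-F2-KO libraries. FFA2 (gene Ffar2) is a receptor for short-chain fatty acids such as acetate. Both genotypes were 20 weeks old by the sample labels, carried the floxed Ffar2 alleles, were littermates housed together, ate Teklad LM-485 chow and received no treatment. The Adipoq-F2-KO mice carried in addition an Adiponectin-Cre transgene, so that Ffar2 was deleted only in cells in which the adiponectin promoter had been active. The labels name no Cre in the controls, and an effect of the transgene itself cannot be told apart from that of the deletion.

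Most TNF superfamily ligands are made as membrane proteins, and some of them, TNF included, are cut from the cell surface and act as soluble cytokines. TNF binds the receptors TNFR1 (gene Tnfrsf1a), which most cells carry, and TNFR2 (gene Tnfrsf1b), which is prominent on immune and endothelial cells. Receptor-bound TRAF and IAP proteins then activate the transcription factor NF-kB and MAP kinases. In adipose tissue TNF is known as a cytokine of inflamed fat that opposes insulin signaling and promotes lipolysis, and macrophages are a well known source of it.

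Library totals lay between 30478997 and 39992605 counts, so that 0 counts in a library allowed up to 0.150 to 0.197 CPM (counts per 1e6 counts). This limit stands for 3 sequenced fragments, or 6 counts, since each fragment seems to have been counted once per mate, and it covers counting error only. Levels are given as CPM scaled by TMM factors, and a gene is called when its adjusted p (edgeR quasi-likelihood test, two-sided, Benjamini-Hochberg over 17039 tested genes) was under 0.05. Ffar2 was read at 1404, 1346 and 1094 counts in FFA2 fl/fl libraries 1 to 3 and at 67, 38, 48 and 76 counts in the 4 Adipoq-F2-KO libraries, a log2 fold change of -4.36 ± 0.22 (SE). Adipocyte genes were abundant in every library, with Adipoq, which encodes adiponectin, at 2419 to 3762 CPM and Plin1, which coats lipid droplets, at 1893 to 3107 CPM. Summed germ cell markers were at 1.70 to 10.04 CPM in 3 Adipoq-F2-KO libraries, at 110 CPM in library 2, and at 0 to 0.605 CPM in FFA2 fl/fl. FFA2 fl/fl library 2 held the highest levels of the B cell genes Cd79a (7.11 CPM, against 0.27 to 3.79 CPM) and Ms4a1 (2.52 CPM, against 0 to 2.05 CPM). The sum of the B cell list, of which Ighm made up most, was not highest there (572 CPM, against 327 to 694 CPM). For Tnf, Tnfrsf1b, Tnfrsf12a, Ltb, Traf1 and the counts of called genes, values without 1 or both of these libraries are given as well. Levels and tests of the other named genes, and the marker sums, are given with all 7 libraries only. All values are from bulk samples, in which fewer cells of a type and less RNA per cell cannot be told apart.

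Across the 10 genes, Tnf and Tnfrsf12a rose in the Adipoq-F2-KO libraries, and 0 of the 10 fell. The call covered 2 of the 9 tested members, 22.2%, against 1.02% of all tested genes called either way and 0.798% called higher. Lta did not pass the filter on low counts, and no member was called lower (0 also at an unadjusted p under 0.05, and 0 by DESeq2). Of the 9 tested members, 7 had a log2 fold change above 0, and the median was 0.41, against 0.00 over all tested genes. This lean was not particular to the members. Among other tested genes of the superfamily the median was 0.65 for 6 ligands (5 above 0) and 0.44 for 20 receptors (17 above 0). In 3 members, Tnf, Tnfrsf1b and Tnfrsf12a, every Adipoq-F2-KO library lay above every FFA2 fl/fl library, as in 8.86% of all tested genes. DESeq2, which called 6.21% of the genes it gave an adjusted p, called these 3. Leaving out FFA2 fl/fl library 1 or library 3 left 0 called members, and leaving out Adipoq-F2-KO library 2 or library 3 left 1.

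**Figure D1:**
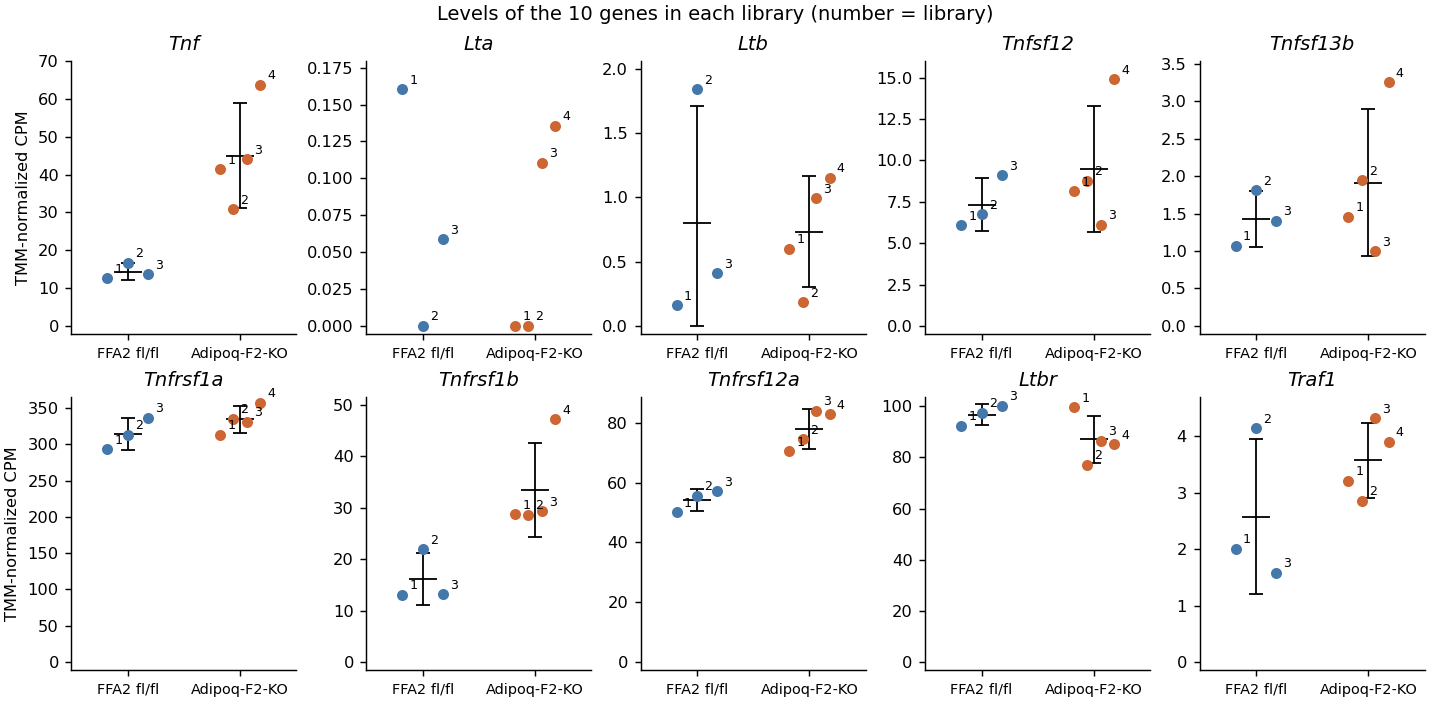
TMM-normalized CPM of the 10 genes in each of the 7 libraries, with the y axis of each panel starting at about 0. Points are libraries with their numbers, and bars are the mean and SD (not drawn for Lta, which was at or near the counting limit, with the lower bar of Ltb ended at 0). For Tnf, Tnfrsf1b and Tnfrsf12a the Adipoq-F2-KO libraries all lie above the FFA2 fl/fl libraries.

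Tnf showed the largest difference of the members. The gene (ENSMUSG00000024401) lies on chromosome 17 from 35418357 to 35420983 on the minus strand, with 1639 bases of exon, in the coordinates of the deposited table. It was read at 471, 665 and 469 counts in FFA2 fl/fl libraries 1 to 3, which are 12.6, 16.8 and 13.7 CPM. In Adipoq-F2-KO libraries 1 to 4 it was read at 1652, 1014, 1594 and 1882 counts, which are 41.4, 30.8, 44.1 and 63.8 CPM. The lowest Adipoq-F2-KO library, number 2, stood clear of the highest FFA2 fl/fl library, and library 4 was the highest. The means were 14.4 ± 2.16 CPM (SD, n = 3) and 45.04 ± 13.8 CPM (SD, n = 4), a 3.14-fold difference. The log2 fold change was 1.65 ± 0.22 (SE; 95% interval 1.17 to 2.12; adjusted p = 0.0192, edgeR). By p it was number 8 of the 17039 tested genes. With FFA2 fl/fl library 1 left out the adjusted p was 0.166, with library 3 left out it was 0.0788, and it stayed under 0.05 when any of the other 5 libraries was left out, over which the log2 fold change ran from 1.43 to 1.80. Without FFA2 fl/fl library 2 and Adipoq-F2-KO library 2 together it was 1.92 (adjusted p = 0.0275, edgeR).

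Because Tnf, Tnfrsf1b and Tnfrsf12a were the members whose genotypes did not overlap, the 250 bases before their start sites are shown, with those of Tnfrsf1a for comparison. The sequences are from RefSeq on GRCm38.p6, whose positions differ from those of the counts table, and are written 5′ to 3′ on the strand of the gene. They stand at chr17:35202008-35202257 (minus strand) for Tnf, chr4:145246871-145247120 (minus) for Tnfrsf1b, chr17:23677450-23677699 (minus) for Tnfrsf12a and chr6:125349473-125349722 (plus) for Tnfrsf1a. Capitals mark matches to a searched motif.
Tnf: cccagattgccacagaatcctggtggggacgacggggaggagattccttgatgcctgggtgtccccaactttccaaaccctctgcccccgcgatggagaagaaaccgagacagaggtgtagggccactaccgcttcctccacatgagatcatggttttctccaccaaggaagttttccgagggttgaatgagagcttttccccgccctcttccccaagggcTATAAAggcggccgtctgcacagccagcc
Tnfrsf1b: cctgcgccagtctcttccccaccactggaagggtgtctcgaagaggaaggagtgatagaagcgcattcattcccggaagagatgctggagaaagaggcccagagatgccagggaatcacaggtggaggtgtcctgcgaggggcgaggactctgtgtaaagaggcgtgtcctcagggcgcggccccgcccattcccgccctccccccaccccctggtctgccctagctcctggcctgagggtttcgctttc
Tnfrsf12a: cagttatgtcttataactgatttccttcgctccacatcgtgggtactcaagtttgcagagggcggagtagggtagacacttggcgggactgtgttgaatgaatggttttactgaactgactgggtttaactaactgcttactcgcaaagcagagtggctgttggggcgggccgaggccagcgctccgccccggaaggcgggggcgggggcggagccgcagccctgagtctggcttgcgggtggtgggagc
Tnfrsf1a: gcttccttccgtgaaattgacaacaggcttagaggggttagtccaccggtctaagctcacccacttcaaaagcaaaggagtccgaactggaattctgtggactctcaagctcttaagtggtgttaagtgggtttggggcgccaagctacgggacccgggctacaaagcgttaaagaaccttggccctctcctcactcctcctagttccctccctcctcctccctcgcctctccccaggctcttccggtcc
The motifs searched, on both strands, were the TATA box TATAAA, the AP-1 site TGANTCA and the kappaB consensus, to which NF-kB binds. The Tnf window holds TATAAA, its first base at position -29 from the start site, and the other 3 windows hold none of these motifs. Of 32851 windows of the same length from all genes, 12.4% hold TATAAA, 6.75% the AP-1 site and 7.25% the kappaB consensus. Of the 10 members, 9 had a window in the table, with 2 windows for Tnfsf13b. Elsewhere among them a kappaB match starts at -87 in Ltb, a TATAAA match at -167 in Lta and an AP-1 match at -127 in the second window of Tnfsf13b. A match is a description of letters only.

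Lta and Ltb, which encode lymphotoxin alpha and beta and flank Tnf on chromosome 17, had few counts in these libraries. Lta (ENSMUSG00000024402, 35422141 to 35424327, minus strand) had 6, 0 and 2 counts in FFA2 fl/fl and 0, 0, 4 and 4 counts in Adipoq-F2-KO libraries. All 7 values were at or under the 6 counts that a 0 allows, so a genotype difference was not detectable at this depth. Ltb (ENSMUSG00000024399, 35413415 to 35415296, plus strand) had 6, 73 and 14 counts in FFA2 fl/fl and 24, 6, 36 and 34 counts in Adipoq-F2-KO libraries. FFA2 fl/fl library 2, the library with the most Cd79a, held the highest Ltb level of all at 1.84 CPM, and the genotypes overlapped. The log2 fold change was -0.14 ± 0.83 (SE; 95% interval -1.97 to 1.69; adjusted p = 0.954, edgeR). Without FFA2 fl/fl library 2 its sign turned, to 1.35, and without Adipoq-F2-KO library 2 it was 0.18. Lymphocytes are the usual source of lymphotoxin. Cd79a moved with Ltb in the controls, while Ighm was highest in library 1 (693 CPM, against 547 and 554 CPM). The sum of the T cell markers was also highest in FFA2 fl/fl library 2 (8.34 CPM, against 2.37 to 5.31 CPM). The part of B cells or T cells in the Ltb level was not tested.

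Tnfsf12, which encodes TWEAK, the ligand of the Tnfrsf12a product, did not differ beyond the spread of its libraries. The gene (ENSMUSG00000097328, chromosome 11, 69577076 to 69586675, minus strand) was at 6.09, 6.75 and 9.11 CPM in FFA2 fl/fl and at 8.13, 8.78, 6.11 and 14.9 CPM in the Adipoq-F2-KO libraries. Adipoq-F2-KO library 4 was the highest, and libraries 1 to 3 lay within the range of the controls. Its log2 fold change was 0.37 ± 0.27 (SE; 95% interval -0.23 to 0.97; adjusted p = 0.515, edgeR). Its locus overlaps Tnfsf13os on the other strand and Tnfsfm13 on its own strand, so the split of reads among these genes is uncertain. Tnfsf13b (ENSMUSG00000031497, chromosome 8, 10056467 to 10089072, plus strand) encodes BAFF, a survival factor of B cells. It was at 1.07, 1.81 and 1.41 CPM in FFA2 fl/fl and at 1.46, 1.94, 0.996 and 3.26 CPM in the Adipoq-F2-KO libraries. Here too library 4 was the highest and library 3 the lowest of the Adipoq-F2-KO samples, and the genotypes overlapped (log2 fold change 0.41 ± 0.44 SE, 95% interval -0.55 to 1.38, adjusted p = 0.668, edgeR).

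The receptors of TNF differed from each other in level and in their genotype difference. Tnfrsf1a (ENSMUSG00000030341, chromosome 6, 125326325 to 125339447, plus strand) was at 293, 313 and 337 CPM in FFA2 fl/fl and at 313, 336, 331 and 357 CPM in the Adipoq-F2-KO libraries. The genotypes overlapped almost wholly, and the log2 fold change was 0.09 ± 0.09 (SE; adjusted p = 0.649, edgeR). Its 95% interval, 0.928-fold to 1.22-fold, bounds the size of any difference. Tnfrsf1b (ENSMUSG00000028599, chromosome 4, 144940033 to 144973440, minus strand) was read at 490, 871 and 450 counts in FFA2 fl/fl, or 13.1, 21.95 and 13.2 CPM. The 4 Adipoq-F2-KO values were 1145, 943, 1060 and 1389 counts, or 28.7, 28.6, 29.3 and 47.1 CPM. Adipoq-F2-KO libraries 1 to 3 were nearly equal and library 4 stood far above them, while FFA2 fl/fl library 2 was the highest control. The means were 16.1 ± 5.09 CPM (SD, n = 3) and 33.4 ± 9.11 CPM (SD, n = 4), 2.08-fold apart. The log2 fold change of 1.05 ± 0.23 (SE; 95% interval 0.55 to 1.55) missed the threshold with an adjusted p of 0.0554 (edgeR), whereas DESeq2 gave an adjusted p of 2.6e-04 and limma voom 0.0493. Without FFA2 fl/fl library 2 the log2 fold change was 1.35 and the adjusted p 0.0478 (edgeR), and without FFA2 fl/fl library 1 it was 0.92 with an adjusted p of 0.263. Without the doubted libraries numbered 2 of both genotypes it was 1.42 (adjusted p = 0.0716, edgeR).

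Since both TNF receptors bind the same ligand, the level of Tnfrsf1b was set against that of Tnfrsf1a within each library, per kilobase of exon. The ratio was 3.03%, 4.75% and 2.65% in FFA2 fl/fl libraries 1 to 3, and it was 6.23%, 5.79%, 6.01% and 8.95% in Adipoq-F2-KO libraries 1 to 4. All 4 Adipoq-F2-KO libraries lay above the 3 controls, with means of 6.74% ± 1.48 (SD, n = 4) and 3.48% ± 1.12 (SD, n = 3). The difference was 0.98 on the log2 scale (exact two-sided permutation test, unadjusted p = 0.0286, the smallest p that 3 against 4 libraries allow). With Tnfrsf1a nearly level, the ratio largely restates the difference of Tnfrsf1b, which missed the adjusted threshold, and is not separate support for it. Genotypes that do not overlap were common, with 1510 of 17039 tested genes wholly higher in Adipoq-F2-KO and 1486 wholly lower. In every library Tnfrsf1a mRNA was the more abundant of the pair.

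**Figure D2:**
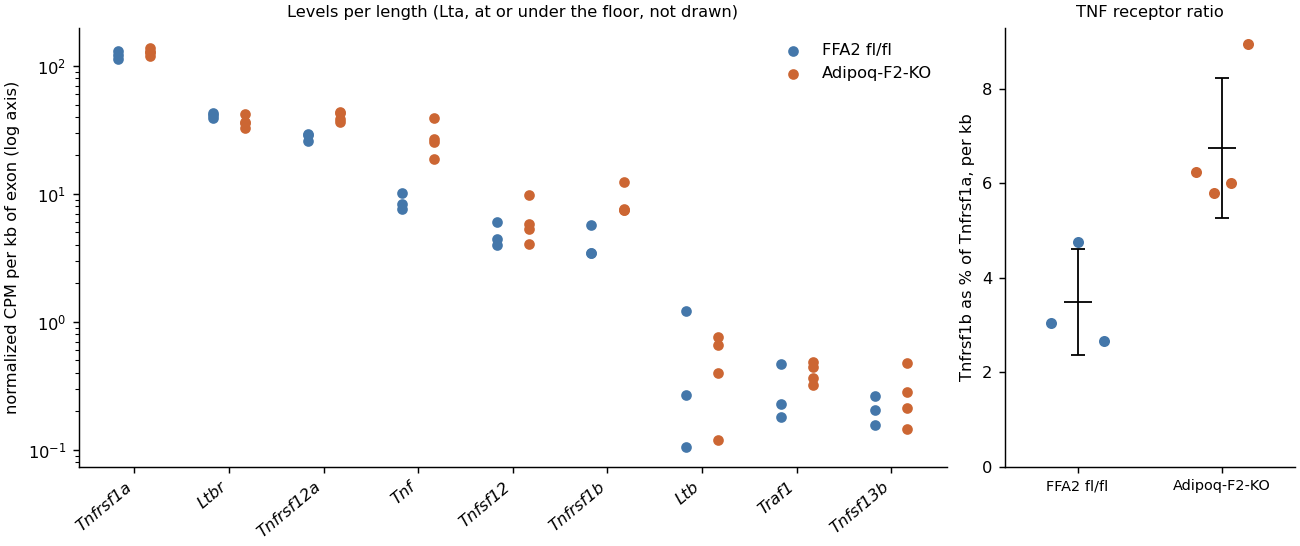
Left, normalized CPM per kilobase of exon on a log axis for 9 of the genes, 1 point per library. Right, Tnfrsf1b as a percentage of Tnfrsf1a per kilobase in each library with the mean and SD, 2.65% to 4.75% in FFA2 fl/fl and 5.79% to 8.95% in Adipoq-F2-KO.

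Tnfrsf12a, which encodes Fn14, the receptor of TWEAK, rose in the Adipoq-F2-KO libraries with a narrow spread. The gene (ENSMUSG00000023905, chromosome 17, 23894419 to 23896442, minus strand) was read at 1878, 2210 and 1950 counts in FFA2 fl/fl, or 50.1, 55.7 and 57.1 CPM. In the Adipoq-F2-KO libraries it was read at 2810, 2451, 3038 and 2442 counts, or 70.5, 74.5, 84.0 and 82.8 CPM. No library of one genotype reached the range of the other, and library 4 did not stand apart here. The means were 54.3 ± 3.68 CPM (SD, n = 3) and 77.9 ± 6.54 CPM (SD, n = 4), a 1.43-fold difference. The log2 fold change was 0.52 ± 0.10 (SE; 95% interval 0.31 to 0.74; adjusted p = 0.0396, edgeR; 3.2e-04 by DESeq2). The call was lost on leaving out any 1 of the controls (adjusted p = 0.228, 0.0840 and 0.137 without libraries 1, 2 and 3, edgeR) and without Adipoq-F2-KO library 2 (0.0639) or library 3 (0.0734), with log2 fold changes of 0.47 to 0.57 throughout. It was also lost without both libraries numbered 2 (log2 fold change 0.56, adjusted p = 0.127, edgeR).

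Ltbr, the receptor of membrane-bound lymphotoxin, had a log2 fold change below 0 that did not pass the test. The gene (ENSMUSG00000030339, chromosome 6, 125283534 to 125290848, minus strand) was at 92.4, 97.5 and 100.3 CPM in FFA2 fl/fl and at 99.5, 77.1, 86.5 and 85.0 CPM in the Adipoq-F2-KO libraries. Adipoq-F2-KO library 1 lay among the controls and the other 3 lay below them (log2 fold change -0.15 ± 0.10 SE, 95% interval -0.37 to 0.07, adjusted p = 0.455, edgeR). Traf1 (ENSMUSG00000026875, chromosome 2, 34831762 to 34851784, minus strand) encodes an adaptor that joins TRAF2 at TNFR2 and is itself a target of NF-kB. It was read at 75, 164 and 54 counts in FFA2 fl/fl, or 2.00, 4.13 and 1.58 CPM, and at 128, 94, 156 and 115 counts, or 3.21, 2.86, 4.31 and 3.90 CPM, in the Adipoq-F2-KO libraries. FFA2 fl/fl library 2 lay within the Adipoq-F2-KO range and the other 2 controls below it. Its log2 fold change was 0.47 ± 0.34 (SE; 95% interval -0.28 to 1.22; adjusted p = 0.507, edgeR), and it was 0.99 without FFA2 fl/fl library 2.

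**Figure D3:**
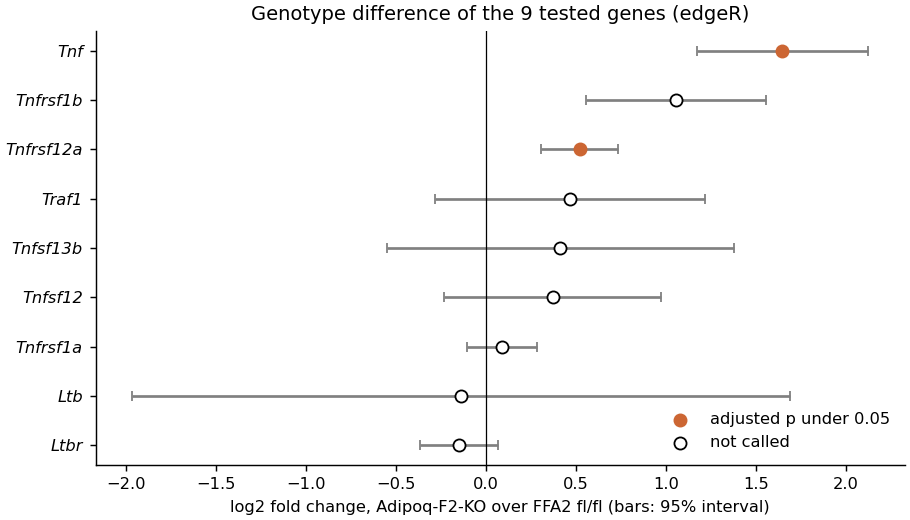
Log2 fold change of Adipoq-F2-KO over FFA2 fl/fl for the 9 tested genes, with 95% intervals from edgeR, and filled points for an adjusted p under 0.05. Tnf, Tnfrsf1b and Tnfrsf12a have intervals that lie above 0, and Tnfrsf1b is not called.

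In level per length, the receptor genes Tnfrsf1a, Ltbr and Tnfrsf12a stood above all 5 ligands in the FFA2 fl/fl libraries. Tnf was the highest of the ligands in both genotypes. In the FFA2 fl/fl libraries the order of mean CPM per kilobase of exon was Tnfrsf1a at 121, Ltbr at 41.1, Tnfrsf12a at 28.1, Tnf at 8.76, Tnfsf12 at 4.83, Tnfrsf1b at 4.21, Ltb at 0.530, Traf1 at 0.292 and Tnfsf13b at 0.208. Neighbours overlapped in range at Tnfsf12 and Tnfrsf1b and among Ltb, Traf1 and Tnfsf13b, and the other neighbours were apart in all 3 libraries. In the Adipoq-F2-KO libraries the level of Tnf was 27.5 CPM per kilobase, so that its range overlapped that of Ltbr at 37.0, while Tnfrsf12a at 40.3 overlapped Ltbr from above. Tnfrsf1b reached 8.76 and was above Tnfsf12 (6.26) in 4 of 4 libraries, although their ranges overlapped. By mean level per kilobase over all libraries, Tnfrsf1a stood at percentile 98.3 of the tested genes, Tnf at 87.8, Tnfrsf1b at 69.9 and Tnfsf13b at 12.8.

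Among 111 other genes of the pathway in 5 lists, 99 were tested, and 11 rose and 0 fell by edgeR (11.1% of those tested, against 1.02% of all tested genes), with a median log2 fold change of 0.33. At an unadjusted p under 0.05, 40 of the 99 were higher and 3 lower, against 10.5% of all tested genes higher and 7.37% lower at that p. DESeq2 called 25 higher and 0 lower, against 6.21% called either way among all genes it gave an adjusted p. Leaving out 1 library gave 0 calls among them without FFA2 fl/fl library 1 or 3, 6 without FFA2 fl/fl library 2, 1 without Adipoq-F2-KO library 2 and 2 without library 3. Of these calls, 10 were among the transcripts known to respond to TNF, of which 31 were tested (32.3%), with a median log2 fold change of 0.72. Many of these genes respond to other inflammatory stimuli as well, and the lists were drawn up with earlier results of these libraries known, so the counts are not independent evidence of TNF activity.

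The responsive genes that rose included chemokines, cytokines, an adhesion molecule of endothelium and NF-kB proteins. Ccl2, a chemokine that attracts monocytes, was at 157, 192 and 152 CPM in FFA2 fl/fl and at 290, 378, 397 and 403 CPM in the Adipoq-F2-KO libraries (log2 fold change 1.14 ± 0.13 SE, adjusted p = 0.0178, edgeR). Csf1, the growth factor of macrophages, was at 56.9, 63.7 and 69.2 CPM against 108, 175, 143 and 179 CPM (1.26 ± 0.16, adjusted p = 0.0192). The libraries of the genotypes were apart for both genes, and Adipoq-F2-KO library 1 was the lowest of its group in each. Il6, which encodes interleukin 6, was at 18.9 to 31.0 CPM against 41.8 to 83.3 CPM (1.47 ± 0.23, adjusted p = 0.0332). Sele, the endothelial E-selectin, was at 5.58 to 8.67 CPM against 15.3 to 36.4 CPM (1.70 ± 0.28, adjusted p = 0.0332). Lcn2 (lipocalin 2), Ccl7, Nfkb2 and Bcl3, the last 2 members of the NF-kB and IkB families, rose with log2 fold changes of 1.26, 0.84, 0.63 and 0.87. Icam1 and Saa3 were the remaining 2 called genes (1.16 and 0.64), and their adjusted p lay closest to the threshold (0.0464 and 0.049955, edgeR). The members of the list with the highest levels per length did not pass the test. Cxcl1 was at 788 to 1140 CPM against 975 to 1423 CPM (log2 fold change 0.38, adjusted p = 0.262), and Nfkbia, which encodes the inhibitor IkB alpha, was at 428 to 673 CPM against 479 to 652 CPM (0.14, adjusted p = 0.685).

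**Figure D4:**
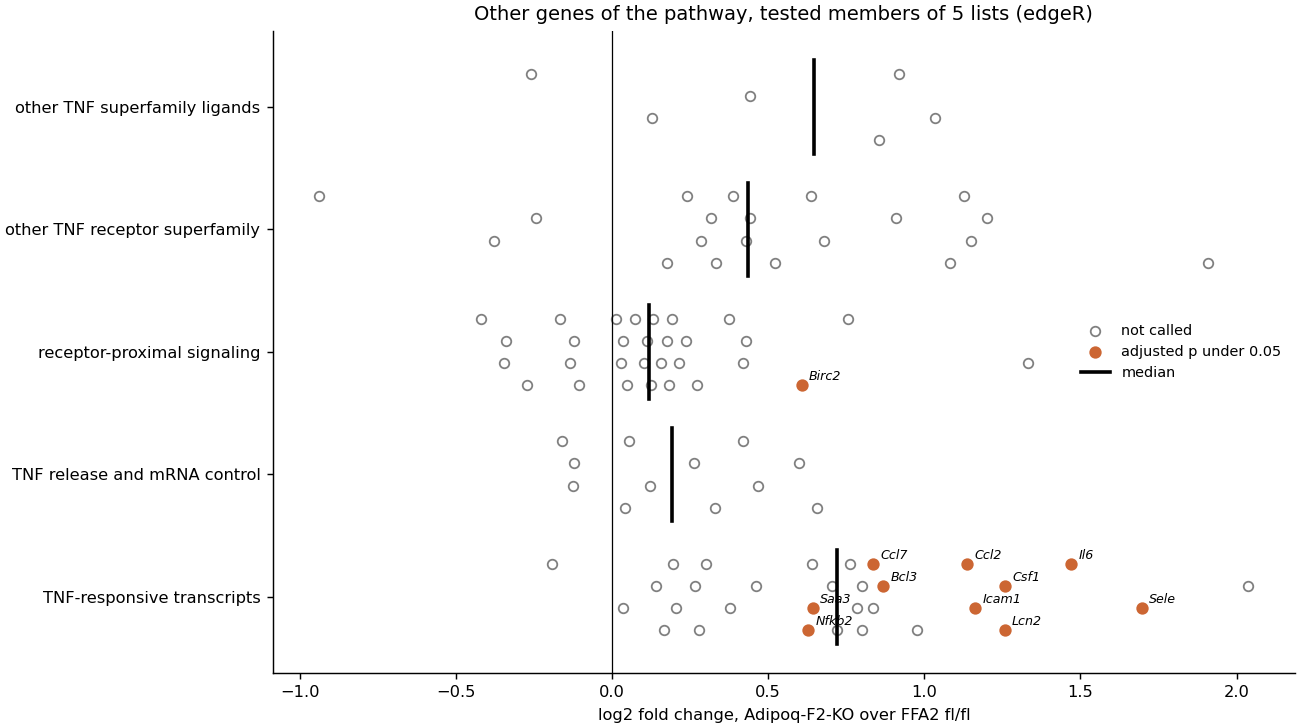
Log2 fold change of Adipoq-F2-KO over FFA2 fl/fl for the tested genes of 5 pathway lists, 1 point per gene, filled where the adjusted p (edgeR) was under 0.05, with a bar at the median of each list. The 10 filled points of the TNF-responsive list run from 0.63 (Nfkb2) to 1.70 (Sele), and Birc2 is the only other called gene.

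Of the 30 genes that act next to the receptors, Birc2 alone rose and 0 fell (7 higher and 3 lower at an unadjusted p under 0.05, edgeR; 3 higher by DESeq2), and the median log2 fold change was 0.12. With 10.5% of all tested genes higher and 7.37% lower at that p, the 3 lower genes were near the background. The share that DESeq2 called either way over all genes it gave an adjusted p was 6.21%. Birc2, which encodes cIAP1, a ubiquitin ligase recruited by TRAF2, was at 33.2, 39.2 and 38.6 CPM in FFA2 fl/fl and at 47.2, 61.8, 54.7 and 61.8 CPM in the Adipoq-F2-KO libraries. Its libraries did not overlap (log2 fold change 0.61 ± 0.12 SE, adjusted p = 0.0418, edgeR). Ripk3, the kinase of necroptosis, had a log2 fold change of 1.33 (adjusted p = 0.0785) and Birc3, which encodes cIAP2, of 0.76 (adjusted p = 0.0791). The 2 genes of the list with the highest level per length by the naming rule, Tab2 and Rbck1, had log2 fold changes of 0.21 and -0.12.

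Among 12 genes that govern the release of TNF or the life of its mRNA, 0 were called by edgeR. At an unadjusted p under 0.05, 6 were higher and 0 lower, against 10.5% and 7.37% of all tested genes. DESeq2 called 3 higher, against 6.21% called either way among all genes it gave an adjusted p. Adam17, the protease that sheds TNF from the membrane, was at 29.3 to 33.6 CPM in FFA2 fl/fl and at 36.6 to 49.8 CPM in Adipoq-F2-KO (log2 fold change 0.47, adjusted p = 0.0824, edgeR). Rhbdf2, which encodes iRhom2, the partner that brings ADAM17 to the surface, was at 24.4 to 33.6 CPM against 42.5 to 57.7 CPM (0.66, adjusted p = 0.0556). Litaf had a log2 fold change of 0.60 (adjusted p = 0.0556). For these 3 genes every Adipoq-F2-KO library lay above every FFA2 fl/fl library, as in 8.86% of all tested genes. Zfp36, which encodes tristetraprolin, a protein that speeds the decay of Tnf mRNA, was the most abundant per length, at 1275 to 1684 CPM against 1380 to 1599 CPM (0.04 ± 0.11 SE, adjusted p = 0.881). Zfp36l1, a relative of Zfp36, had a log2 fold change of 0.33 (adjusted p = 0.266).

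The other ligands and receptors of the superfamily were mostly low, and 0 of them were called by edgeR. Of 13 other ligands 6 were tested, with 1 higher at an unadjusted p under 0.05 and 1 called by DESeq2, and of 24 other receptors 20 were tested, with 3 higher at that p and 2 called by DESeq2. The counts at that p were near the 10.5% of all tested genes that were higher. By DESeq2, 6.21% of all genes it gave an adjusted p were called either way. Tnfsf9, which encodes the 4-1BB ligand, was at 1.98 to 3.25 CPM in FFA2 fl/fl and 3.81 to 9.02 CPM in Adipoq-F2-KO (log2 fold change 1.03 ± 0.32 SE, adjusted p = 0.138, edgeR). Tnfsf13, Tnfsf14 and Eda had log2 fold changes of 0.92, 0.85 and 0.13, with intervals that included 0. Tnfrsf10b, the mouse receptor of TRAIL, was at 19.6 to 27.3 CPM against 31.0 to 63.4 CPM (0.91 ± 0.22, adjusted p = 0.0684). Fas, the death receptor, was at 31.2 to 33.1 CPM against 35.1 to 45.2 CPM (0.32 ± 0.11, adjusted p = 0.163). Cd40, a receptor of antigen-presenting cells, was at 0.176 to 0.806 CPM against 0.502 to 2.71 CPM (1.91 ± 0.66, adjusted p = 0.169), and its libraries overlapped.

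Transcripts of other cell types of fat moved with genotype beside these genes. The 16 macrophage markers summed to 445 to 500 CPM in FFA2 fl/fl and to 576 to 662 CPM in the Adipoq-F2-KO libraries (ratio of means 1.28, no overlap). Of the 15 tested, 2 rose, the lysosomal genes Cd68 (log2 fold change 0.72) and Lyz2 (0.69), and 0 fell (9 higher and 1 lower at an unadjusted p under 0.05, edgeR; 7 higher by DESeq2). Over all tested genes 1.02% were called, and 10.5% were higher at that p, while DESeq2 called 6.21% of the genes it gave an adjusted p. Adgre1, which encodes the macrophage antigen F4/80, was at 10.1 to 12.9 CPM against 15.9 to 25.98 CPM (0.73 ± 0.18 SE, adjusted p = 0.0792, edgeR). The list did not move as one, since the complement gene C1qc had a log2 fold change of 0.12 and the macrophage genes Cd163 and Mertk of -0.12 and -0.42. None of the 16 was at 0 in every library.

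Summed markers were also apart between genotypes for dendritic cells (6 genes, 19.4 to 28.8 against 29.2 to 39.1 CPM) and mast cells (6 genes, 12.2 to 14.8 against 16.04 to 30.3 CPM, with Fcer1a at 0). They were apart as well for endothelial cells (10 genes, 1077 to 1421 against 1494 to 2356 CPM) and fibroblast progenitors (9 genes, 852 to 1136 against 1216 to 1462 CPM), and so were the germ cell sums given above. Kit held most of the mast cell sum (mean 10.8 CPM in FFA2 fl/fl and 18.1 CPM in Adipoq-F2-KO). Of the 4 tested mast cell genes, 2 had log2 fold changes above 0 and 2 below (Tpsb2 -1.03, Mcpt4 -0.38). Zbtb46 and Itgax held most of the dendritic cell sum, and 0 of its 5 tested genes were apart. Col3a1 (535 and 713 CPM) held most of the fibroblast progenitor sum, with 8 of the 9 genes above 0 and Col1a1 at -0.05. In these 4 somatic lists edgeR called 0 genes. At an unadjusted p under 0.05 (edgeR), 8 of 10 tested endothelial genes and 4 of 9 fibroblast progenitor genes were higher. So were 2 of 5 dendritic cell genes and 1 of 4 mast cell genes, and 0 were lower, against 10.5% of all tested genes higher. DESeq2 called 6 genes of these lists higher and 0 lower, against 6.21% called either way among all genes it gave an adjusted p. The 11 adipocyte markers summed to 42772 to 48016 CPM in FFA2 fl/fl and to 33015 to 43588 CPM in Adipoq-F2-KO (ratio 0.857). Of these markers 0 were called by edgeR, and DESeq2 called 2 lower. At an unadjusted p under 0.05 (edgeR), 1 was higher and 5 were lower, against 10.5% and 7.37% of all tested genes. T cell markers summed to 2.46 to 8.34 against 2.37 to 5.31 CPM and neutrophil markers to 2.55 to 3.66 against 2.46 to 5.01 CPM, with the neutrophil antigen gene Ly6g at 0 in all libraries. The 10 genes known to be induced while tissue is dissociated summed to 9218 to 11499 CPM against 9299 to 10172 CPM, with a ratio of means of 0.955. Of these 10 genes, 5 had log2 fold changes above 0 and 5 below, and 0 were called by edgeR. Dusp1 (0.35) alone was higher at an unadjusted p under 0.05 (edgeR), against 10.5% of all tested genes, and 0 were lower. Adipoq-F2-KO library 4, which held the highest Tnf, Tnfrsf1b, Tnfsf12 and Tnfsf13b, also held the highest macrophage, endothelial, fibroblast progenitor and mast cell sums, the lowest adipocyte sum and the largest share of mitochondrial counts (10.3%, against 4.41% to 5.77% in FFA2 fl/fl and 6.61% to 9.24% in the other Adipoq-F2-KO libraries). The ratio of means was 3.14 for Tnf and 2.08 for Tnfrsf1b. For the sums it was 1.28 (macrophage), 1.42 (endothelial) and 1.30 (fibroblast progenitor), and a sum is weighted to its most abundant genes. Single macrophage genes ran from 0.749 for Mertk, the most abundant of the list in FFA2 fl/fl, to 1.83 for Itgam. The median log2 fold change of the 15 tested macrophage genes was 0.61. The part of these cell types in the differences of Tnf, Tnfrsf1b and Tnfrsf12a was not tested.

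**Figure D5:**
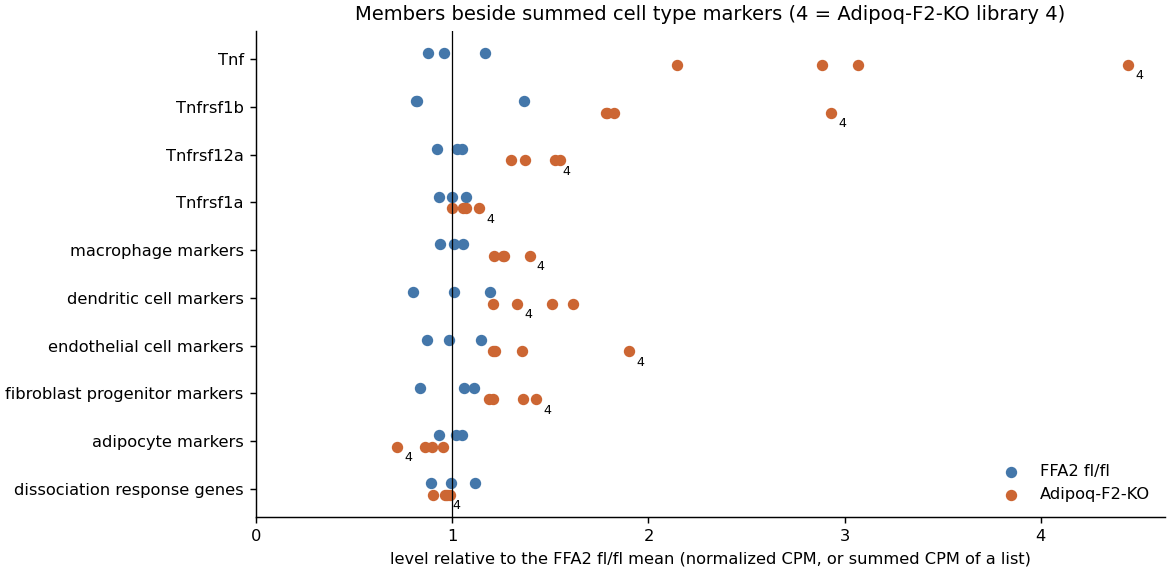
Levels of Tnf, Tnfrsf1b, Tnfrsf12a and Tnfrsf1a and summed levels of 6 marker lists in each library, divided by the FFA2 fl/fl mean (linear axis from 0, 1 point per library, 4 marks Adipoq-F2-KO library 4). The macrophage, dendritic cell, endothelial and fibroblast progenitor sums are higher in every Adipoq-F2-KO library, with ratios of means from 1.28 to 1.42. The ratio is 3.14 for Tnf, 2.08 for Tnfrsf1b and 1.43 for Tnfrsf12a.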

How the data were processed

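The deposited table holds whole-number counts per gene and library, which the authors made by trimming reads with Trimmomatic, aligning them with STAR and counting them per gene with featureCounts, without normalization. Versions, strand and overlap options are not given in the sources used here. Libraries were poly-A selected, stranded and read as pairs. The submitters' processing notes name GRCm38 (mm10), but of 52029 identifiers shared with a GRCm38 annotation only 1409 had the same position, so coordinates are those of the deposited table and the annotation served for names. In each library 85.5% to 88.8% of counts from 1 to 49 were even, so that 1 fragment appears to add 2 counts.

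Counts were filtered with filterByExpr, scaled by TMM (factors 0.968 to 1.02) and put through the quasi-likelihood test (glmQLFit, glmQLFTest) of edgeR 4.0.16, run in R 4.3.3, with a term for genotype alone, over 17039 genes (common biological coefficient of variation 0.258). DESeq2 1.42.0, the tool named in the study's methods, and limma 3.58.1 were alternatives, as were other scalings and filters, halved counts, a replicate block and leaving out libraries. Scripts were tested on simulated data. Libraries of a genotype differed pairwise beyond sampling noise (chi-square 41.5 to 165 times its degrees of freedom), and all 7 were kept. The labels do not say that each library is 1 animal, so p-values measure the spread between these samples.

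The members and lists were chosen with earlier results of these data known. Genes named are the 10 members, Ffar2, in each pathway list the called genes (at most 8 by smallest p), the 3 with the smallest p and the 2 with the highest level per length, and marker genes beside a result. Icam1 and Saa3 were named in addition, after their values were seen. Promoter windows and motif counts came from a RefSeq table on GRCm38.p6.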

Additional observations from a re-analysis of the deposited data

Results flagged for a closer look

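Tnfrsf1b stood apart in 1 Adipoq-F2-KO library. Library 4 was at 47.1 CPM, while libraries 1 to 3 lay between 28.6 and 29.3 CPM, and the gap was 0.964 of the range of the group, above Dixon's 95% critical value for 4 samples. The ratio of Tnfrsf1b to Tnfrsf1a per kilobase was set apart in the same library, at 8.95% against 5.79% to 6.23%. Of 39 features checked in the 4 Adipoq-F2-KO libraries these 2 passed the limit, and chance alone passes about 1 in 20. Without library 4 the log2 fold change of Tnfrsf1b was 0.84 (adjusted p = 0.0596, edgeR) and that of Tnf was 1.43 (adjusted p = 0.00541, edgeR).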

How the results depend on the processing

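The count of called genes depended strongly on the settings. It was 173 as reported, 1403 with a filter of at least 1 count, 890 with DESeq2, 4 without both libraries numbered 2 (chosen after seeing the data), and 1 to 178 when 1 library was left out. The members called were 2 as reported, 3 with DESeq2, limma voom, halved counts, library totals alone or the filter of 1 count (Tnfrsf1b in addition), 1 without both libraries numbered 2, and 0 to 2 when 1 library was left out. For the pathway genes the counts were 11, 31 with the filter of 1 count, 25 with DESeq2, 1 without both libraries numbered 2 and 0 to 12 with 1 library left out. Ltb was at 6 to 73 counts per library, and its log2 fold change was -0.14 as reported. This value turned to 0.20 with limma voom, 0.14 with the replicate block and 1.35 without FFA2 fl/fl library 2. It was 0.18 without Adipoq-F2-KO library 2 and 1.68 without both libraries numbered 2. With 1 library left out it ran from -0.62 to 1.35. The other 8 tested members kept their direction under all alternatives run. The difference of the log2 ratio of Tnfrsf1b to Tnfrsf1a lay between 0.81 and 1.23 with 1 library left out, designs that cannot pass 0.05 (smallest p 0.0667 or 0.1). With the replicate block, which drops Adipoq-F2-KO library 4, edgeR called 223 genes, 3 members (Tnfrsf1b with an adjusted p of 0.0444) and 17 pathway genes. The labels give no pairing, same-numbered libraries correlated in their deviations at 0.07, -0.03 and -0.04, and not every library correlated best with its own number. No scaling moved the median of all genes by over 0.1, and no scaling turned the direction of a member. The cause of these changes was not tested.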
